A study of Mus musculus with 18 samples.

Results

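The genes described here are the 10 mouse genes that build, load and switch on MHC class II: H2-Aa, H2-Ab1, H2-Eb1, Cd74, Ciita, H2-DMa, H2-DMb1, H2-DMb2, H2-Oa and H2-Ob. They were chosen by name, for what their products do, out of the 21254 genes of the deposited count table. All 10 were in the table, and all 10 were among the 15811 genes that passed the filter on low counts. They were followed by bulk RNA-seq in 18 libraries of lung macrophages from LPS-nebulized mice, 3 libraries for each of 3 populations in each of 2 genotypes. WT mice carried the Cx3cr1-Cre allele (B6.Cx3cr1tm1.1(cre)Jung/J) without floxed Ezr. Ezr-KOm mice carried the same Cre with floxed Ezr, which deletes Ezr where the Cx3cr1 promoter is active. Ezrin links the actin cytoskeleton to the plasma membrane. The mice were on the C57BL/6 background and 3 to 5 months old. The study reports equal shares of females and males over its experiments as a whole, and the sex of the mice behind each library is not given. Every one of these mice had breathed nebulized Pseudomonas aeruginosa LPS (12.5 mg in 5 ml PBS over 15 min) 24 h before the lungs were taken. No library of unexposed mice was analysed here.

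The 3 populations were sorted from CD45+CD11b+ cells by MHC-II and Ly6C: monocyte-derived macrophages (moM) as MHC-II-Ly6C+, transitional interstitial macrophages (trIM) as MHC-II+Ly6C+, and mature interstitial macrophages (matIM) as MHC-II+Ly6C-, as the labels give the gates. Surface MHC-II was therefore part of the gate that separates moMs from the others. The antibody is named for I-A/I-E, and H2-Aa, H2-Ab1 and H2-Eb1 encode I-A and I-E chains. They are called the genes of the stained antigen here. Because the sort acted on that antigen, their difference from moMs is given as a description with no test. Whether I-E, and so the H2-Eb1 product, was on the surface of these cells was not measured. TrIMs and matIMs were both MHC-II+ and were told apart by Ly6C, and WT and Ezr-KOm cells went through the same gates. The study describes the populations as coming from 3 mice per genotype, so the libraries of the 3 populations within a genotype are not independent of each other.

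MHC class II molecules carry peptides from taken-up material to the cell surface, where CD4+ T cells read them. An alpha and a beta chain (I-A from H2-Aa and H2-Ab1, I-E with the beta chain from H2-Eb1) assemble in the endoplasmic reticulum with the invariant chain encoded by Cd74, which blocks the peptide groove and steers the complex to endosomes. There, proteases cut the invariant chain down to a short stub, and H2-DM, a dimer of the H2-DMa product with a beta chain from H2-DMb1 or H2-DMb2, exchanges the stub for peptide. H2-O, a dimer of the H2-Oa and H2-Ob products, binds H2-DM and holds it back, and it is best known from B cells and some dendritic cells. Ciita encodes the transactivator that is recruited to the X and Y boxes of class II promoters and switches on class II genes. In monocytes class II is low at rest, and it is a classical target of interferon-gamma.

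Ezr, the deleted gene, was read first as a check of the labels. Its level was 503, 593 and 497 TMM-scaled CPM (counts relative to the library total) in WT moMs and 282, 160.0 and 252 in Ezr-KOm moMs. In trIMs it was 679, 515 and 565 against 234, 126 and 213, and in matIMs 741, 632 and 611 against 167, 93.8 and 144. The genotypes did not overlap in any population, with log2 fold changes of -1.20, -1.62 and -2.29 in moMs, trIMs and matIMs (edgeR, Benjamini-Hochberg adjusted p = 0.0549, 0.00365 and 7.73e-05). Ezr RNA was thus still counted in every Ezr-KOm library. The libraries held 16512783 to 48460995 counts, and the second Ezr-KOm trIM library was the deepest. The 10 genes took 0.503% to 0.672% of the counts in WT moMs, 2.98% to 5.78% in WT trIMs and 4.63% to 5.93% in WT matIMs.

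In the deposited coordinates (GRCm39), 8 of the 10 genes lie within 224 kb of chromosome 17, from H2-Oa at chr17:34311314-34314208 through H2-DMa (chr17:34338515-34358075), H2-DMb2 (chr17:34362281-34370529), H2-DMb1 (chr17:34372046-34379204), H2-Ob (chr17:34457877-34473388), H2-Ab1 (chr17:34476663-34488393) and H2-Aa (chr17:34501718-34506797) to H2-Eb1 (chr17:34524841-34535648). H2-Aa is read from the minus strand and the other 7 from the plus strand. Ciita lies at chr16:10297923-10346282, and Cd74 lies outside the cluster as well. Ezr is also on chromosome 17, at chr17:7005440-7050183, upstream of the class II genes. The pair of beta chain genes of H2-DM are near copies: their transcripts were 94.3% identical over 80.4% of the H2-DMb1 transcript, so reads from the shared stretches could be dropped or split between them in counting. In the deposited coordinates H2-DMa overlaps Brd2 and the lncRNA Gm50335, Ciita overlaps Dexi, and H2-Oa and H2-Eb1 overlap the lncRNAs BC051537 and Gm20513, each on the opposite strand. The counting is not stated to have used strand, so reads from such overlaps could not be told apart.

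Stretches of 90 bases just upstream of the annotated transcription start show where letters of the X and Y boxes, on which CIITA is assembled, were found in this cluster. Each is read 5′ to 3′ in the direction of its gene and ends 1 base before the start of the canonical transcript (GRCm39, GENCODE vM39), which for H2-Ab1 and H2-DMb2 lies inside the longer span given above. Capitals mark a match to the core of the X1 box (GNNACNGA) or to the Y box (CTGATTGG, or its 7-letter core TGATTGG), and the 3 genes of the stained antigen come first, then the H2-DM beta chains and H2-O.
H2-Aa (chr17:34506798-34506887, minus strand): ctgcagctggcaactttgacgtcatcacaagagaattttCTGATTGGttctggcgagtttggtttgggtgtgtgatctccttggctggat
H2-Ab1 (chr17:34482093-34482182, plus strand): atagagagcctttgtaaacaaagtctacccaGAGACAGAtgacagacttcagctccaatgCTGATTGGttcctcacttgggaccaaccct
H2-Eb1 (chr17:34524723-34524812, plus strand): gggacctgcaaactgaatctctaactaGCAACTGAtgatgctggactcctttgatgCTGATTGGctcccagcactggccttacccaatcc
H2-DMb1 (chr17:34371956-34372045, plus strand): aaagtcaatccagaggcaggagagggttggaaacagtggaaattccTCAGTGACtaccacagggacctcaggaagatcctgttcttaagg
H2-DMb2 (chr17:34364084-34364173, plus strand): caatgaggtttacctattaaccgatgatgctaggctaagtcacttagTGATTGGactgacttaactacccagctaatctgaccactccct
H2-Ob (chr17:34457746-34457835, plus strand): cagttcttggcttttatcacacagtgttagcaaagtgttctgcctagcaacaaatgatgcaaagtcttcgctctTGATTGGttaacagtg
H2-Oa (chr17:34311224-34311313, plus strand): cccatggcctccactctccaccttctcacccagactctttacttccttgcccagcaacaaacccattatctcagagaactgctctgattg

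The motifs were searched on both strands of the 250 bases upstream of the start in 21770 protein-coding genes. The Y box was found in 3 of the 10 genes, H2-Aa, H2-Ab1 and H2-Eb1, and in 4.54% of all promoters. The H2-Oa window ends in the first 7 letters of the Y box, cut off at its edge. A match that crosses the start was not searched, so the box is not shown to be missing from H2-Oa. The 7-letter core, which lies inside the Y box and was added after the sequences had been seen, was found in 6 of the 10, with H2-DMa, H2-DMb2 and H2-Ob added, and in 8.32% of all promoters. The X1 core was found in 6 of the 10 and in 37.3% of all promoters, a common match. An X1 core followed by a Y box on the same strand, with 15 to 30 bases between them, occurred in 9 promoters (0.0413%), of which H2-Ab1, H2-Eb1 and their neighbour H2-Eb2 are class II beta chain genes, each with 21 bases between the motifs. The core was found upstream of H2-DMb2 and not of H2-DMb1, but their windows are not cut at matching points. Letters near the end of the H2-DMb1 window recur in the H2-DMb2 window, upstream of its core. A counterpart of that core could thus lie beyond the H2-DMb1 window, and no difference between these promoters is read from the search. A match describes letters in this window and no binding was measured here.

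Per kilobase of canonical transcript, the invariant chain and the I-A chains were the highest of the group in every population. In WT matIMs, Cd74 averaged 15650.2 CPM per kb (range 11833 to 18091, n = 3) and H2-Ab1 12674 (10332 to 14079), and these ranges overlapped. H2-Aa followed at 5858 and H2-Eb1 at 3478 CPM per kb. The loading machinery stood lower, with H2-DMb1 at 1099.8, H2-DMa at 845 and H2-DMb2 at 305. H2-Ob, Ciita and H2-Oa closed the order at 34.1, 26.2 and 24.5 CPM per kb, and the ranges of Ciita (20.2 to 31.1) and H2-Oa (23.9 to 25.4) overlapped. In WT moMs the order differed in the middle: H2-DMa (405 CPM per kb) and H2-DMb1 (273) stood above H2-Eb1 (143). H2-Oa was the lowest there, at 0.728 CPM per kb, from 9 to 33 counts per library. In that order the ranges of H2-Aa with H2-DMa overlapped, and those of the other neighbours did not.

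**Figure D1:**
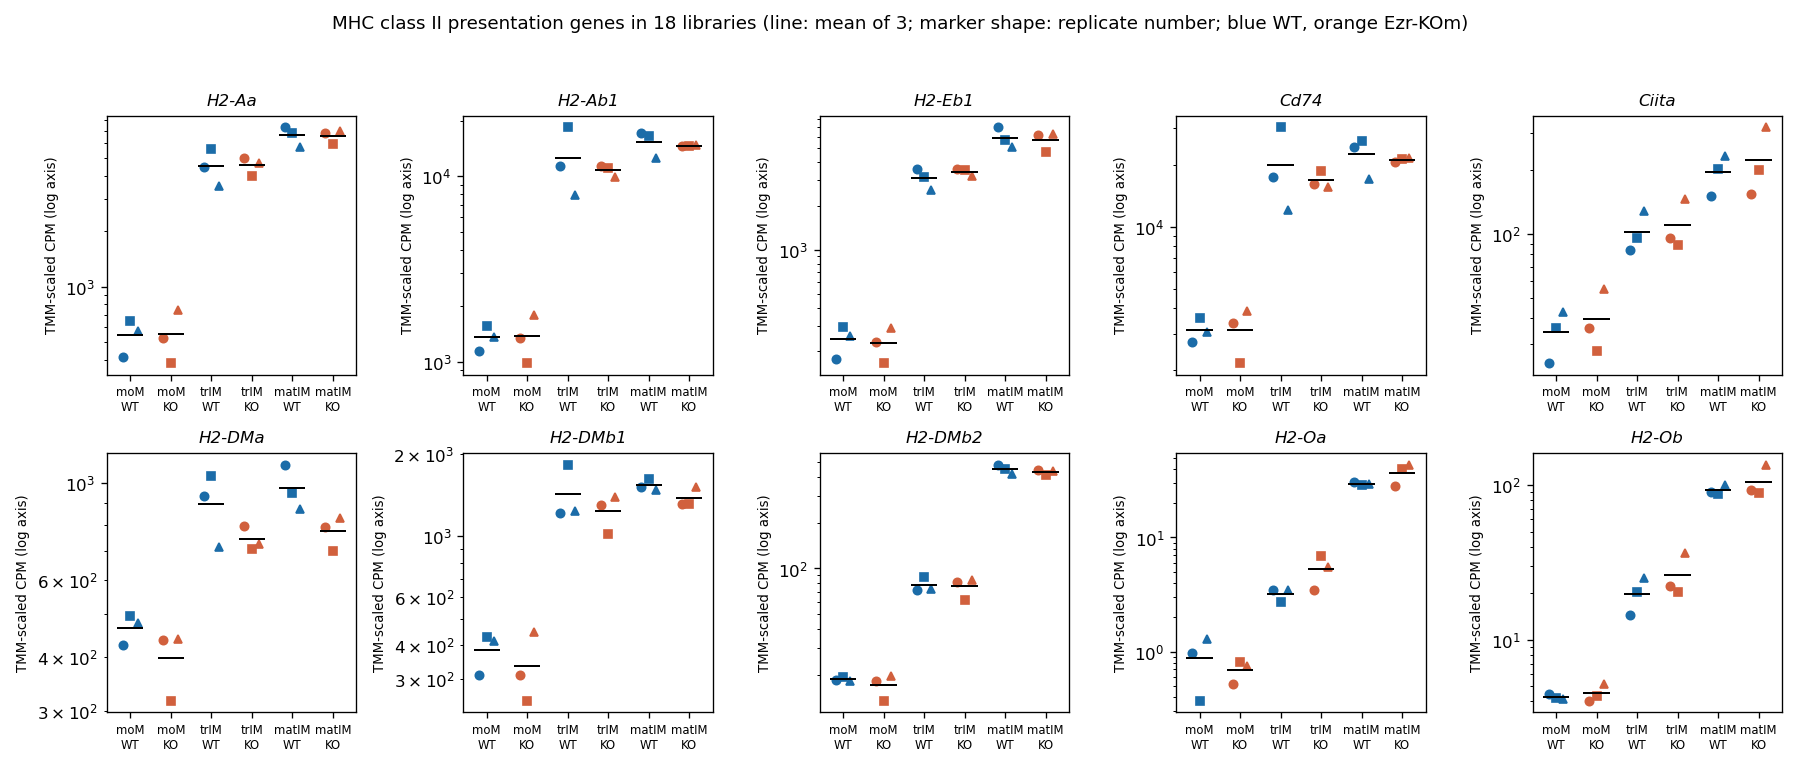
TMM-scaled CPM (log axis) of each of the 10 genes in the 18 libraries, by population and genotype; points are libraries, shapes give the replicate number and lines the mean of 3. H2-Oa, H2-Ob and H2-DMb2 climb at both steps, from moM to trIM and from trIM to matIM, while H2-DMa and H2-DMb1 climb at the first step and overlap at the second in WT mice.

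The comparison of matIMs with trIMs asks how class II genes differ between 2 populations that both display MHC-II. In both genotypes 5 of the 10 genes were higher in matIMs at an adjusted p under 0.05, against 8.32% of all genes tested in WT and 8.37% in Ezr-KOm mice, and none of the 10 was lower. They were the same 5 genes in WT and Ezr-KOm mice: H2-Oa, H2-Ob, H2-DMb2, Ciita and H2-Eb1. The median log2 fold change of the 10 was 0.73 in WT and 0.63 in Ezr-KOm mice, beside 0.0367 and 0.0151 over all genes. The group did not move as a block: the H2-O chains and H2-DMb2 rose by 4.65- to 9.11-fold in WT mice while the values of the other H2-DM chains and of Cd74 did not pass the test.

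H2-Oa, the alpha chain of the H2-DM inhibitor, showed the widest step. In WT mice, H2-Oa stood at 0.968, 0.373 and 1.30 CPM in moMs, 3.46, 2.73 and 3.49 in trIMs and 30.7, 28.9 and 29.2 in matIMs. In Ezr-KOm mice it stood at 0.522, 0.810 and 0.749 CPM in moMs, 3.49, 6.90 and 5.51 in trIMs and 28.4, 39.7 and 43.0 in matIMs. Every matIM library lay above every trIM library in both genotypes. The log2 fold change of matIMs over trIMs was 3.19 (SE 0.30, edgeR adjusted p = 5.48e-07) in WT and 2.79 (SE 0.28, adjusted p = 1.54e-06) in Ezr-KOm mice. In moMs these CPM rest on 9 to 33 counts per library, against 677 to 1154 in matIMs.

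H2-Ob, the beta chain that pairs with H2-Oa, followed it. In WT mice, H2-Ob stood at 4.44, 4.23 and 4.13 CPM in moMs, 14.5, 20.2 and 24.9 in trIMs and 89.8, 87.1 and 101 in matIMs. The Ezr-KOm libraries held 4.05, 4.32 and 5.20 CPM in moMs, 22.4, 20.3 and 36.2 in trIMs and 92.6, 88.7 and 134 in matIMs. The matIM libraries again lay above all trIM libraries. Its log2 fold change was 2.22 (SE 0.23, adjusted p = 1.52e-06) in WT and 2.00 (SE 0.22, adjusted p = 4.27e-06) in Ezr-KOm mice. The replicates were close in WT matIMs, and the third Ezr-KOm library was the highest of its group in every population.

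H2-DMb2 and H2-DMb1, the near-identical beta chains of the peptide exchanger H2-DM, parted ways. In WT mice, H2-DMb2 stood at 18.6, 19.6 and 18.2 CPM in moMs, 71.8, 87.6 and 73.4 in trIMs and 475, 449 and 414 in matIMs. In Ezr-KOm mice the same gene was read at 18.4, 13.6 and 19.8 CPM in moMs, 82.1, 62.3 and 84.7 in trIMs and 439.9, 412 and 433 in matIMs. H2-DMb2 was 2.52 higher on the log2 scale in matIMs than in trIMs in WT mice (SE 0.16, adjusted p = 7.88e-09) and 2.49 higher in Ezr-KOm mice (SE 0.15, adjusted p = 8.83e-09), with no overlap between libraries. Per kilobase, H2-DMb1 is by far the more abundant of the pair. In WT mice, H2-DMb1 stood at 310.3, 427 and 413 CPM in moMs, 1217, 1822 and 1241 in trIMs and 1521, 1627 and 1484 in matIMs. Its Ezr-KOm values were 309.9, 250.2 and 447 CPM in moMs, 1304, 1019 and 1389 in trIMs and 1315, 1310.0 and 1511 in matIMs. The trIM and matIM libraries of H2-DMb1 overlapped in both genotypes, with log2 fold changes of 0.11 (95% interval -0.31 to 0.54, adjusted p = 0.787) and 0.16 (-0.27 to 0.58, adjusted p = 0.697). The upper ends of these intervals lie below the lower ends of the H2-DMb2 intervals, 2.20 and 2.16.

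H2-DMa, the alpha chain that both beta chains need, did not pass the test at this step. In WT mice, H2-DMa stood at 426, 497 and 477 CPM in moMs, 935, 1036 and 715 in trIMs and 1099, 947 and 873 in matIMs. The Ezr-KOm libraries held 437, 317 and 439 CPM in moMs, 798, 706 and 724 in trIMs and 791, 699 and 833 in matIMs. The trIM and matIM libraries overlapped. The log2 fold change was 0.12 (95% interval -0.21 to 0.45, adjusted p = 0.694) in WT and 0.06 (-0.27 to 0.39, adjusted p = 0.867) in Ezr-KOm mice, which bounds any rise to less than 0.45 in WT mice at this confidence.

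Ciita, the transactivator, rose by a smaller amount. In WT mice, Ciita stood at 24.5, 35.9 and 42.9 CPM in moMs, 83.6, 95.9 and 128 in trIMs and 151, 203 and 233 in matIMs. Its Ezr-KOm values were 35.8, 28.04 and 54.8 CPM in moMs, 95.6, 88.9 and 146 in trIMs and 155, 201 and 319 in matIMs. The matIM libraries lay above the trIM libraries of the same genotype, and the third library was the highest of the 3 in every one of the 6 groups. The log2 fold change was 0.93 (SE 0.29, adjusted p = 0.0310) in WT and 1.03 (SE 0.29, adjusted p = 0.0179) in Ezr-KOm mice. This call did not hold without single libraries: in WT mice the adjusted p was 0.123 and 0.0963 without the first or second trIM library and 0.0845 and 0.131 without the second or the third matIM library. In Ezr-KOm mice it was 0.0674 and 0.0879 without the first or second trIM library and 0.147 without the third matIM library.

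Of the I-A and I-E chain genes, H2-Eb1, which encodes the I-E beta chain, was the one that passed the test. In WT mice, H2-Eb1 stood at 178, 295 and 253 CPM in moMs, 3587, 3186 and 2575 in trIMs and 6954, 5692 and 5060.3 in matIMs. In Ezr-KOm mice it stood at 232, 167 and 290.3 CPM in moMs, 3597, 3515 and 3222 in trIMs and 6136, 4743 and 6225 in matIMs. In each genotype all matIM libraries lay above all trIM libraries, and its log2 fold change was 0.92 (SE 0.21, adjusted p = 0.00380) in WT and 0.73 (SE 0.21, adjusted p = 0.0191) in Ezr-KOm mice. The Ezr-KOm call was lost without the first or the third trIM library (adjusted p = 0.0537 and 0.103) and without the first or the third matIM library (0.106 and 0.110).

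H2-Aa, the I-A alpha chain, lay above trIMs in all matIM libraries but missed the threshold. In WT mice, H2-Aa stood at 414, 647 and 576 CPM in moMs, 4476, 5591 and 3494 in trIMs and 7307, 6827 and 5689 in matIMs. The values in Ezr-KOm mice were 528, 385 and 741 CPM in moMs, 4956, 3989 and 4706 in trIMs and 6778, 5949 and 7027 in matIMs. Its log2 fold change was 0.55 (95% interval 0.09 to 1.01, adjusted p = 0.0986) in WT and 0.53 (0.07 to 0.99, adjusted p = 0.110) in Ezr-KOm mice. With genotype and replicate number together as a block, standing for the mouse, H2-Aa passed in both (adjusted p = 0.0186 and 0.0261). H2-Ab1, its I-A partner, stood at 11427, 18399.8 and 7929.8 CPM in WT trIMs and 17064, 16496 and 12522 in WT matIMs, where the groups overlapped (log2 fold change 0.29, adjusted p = 0.512). In Ezr-KOm mice it stood at 11389.7, 11145 and 9871 and 14676, 14662 and 14703 CPM, which did not overlap, with a log2 fold change of 0.44 (adjusted p = 0.259).

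Cd74, the invariant chain and the most abundant transcript of the group, did not pass the test at this step. Its level was 17462, 30295 and 11997 CPM in WT trIMs and 24366, 25888 and 16933 in WT matIMs, and 16119, 18647 and 15475 against 20624, 21154 and 21572 in Ezr-KOm mice. The second WT trIM library stood above every matIM library for Cd74 and for H2-Ab1, while the third WT trIM library was the lowest of the trIMs. The log2 fold changes were 0.17 (95% interval -0.38 to 0.72, adjusted p = 0.749) and 0.33 (-0.22 to 0.89, adjusted p = 0.467), and the WT value was 0.57 without the second and -0.14 without the third WT trIM library.

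**Figure D2:**
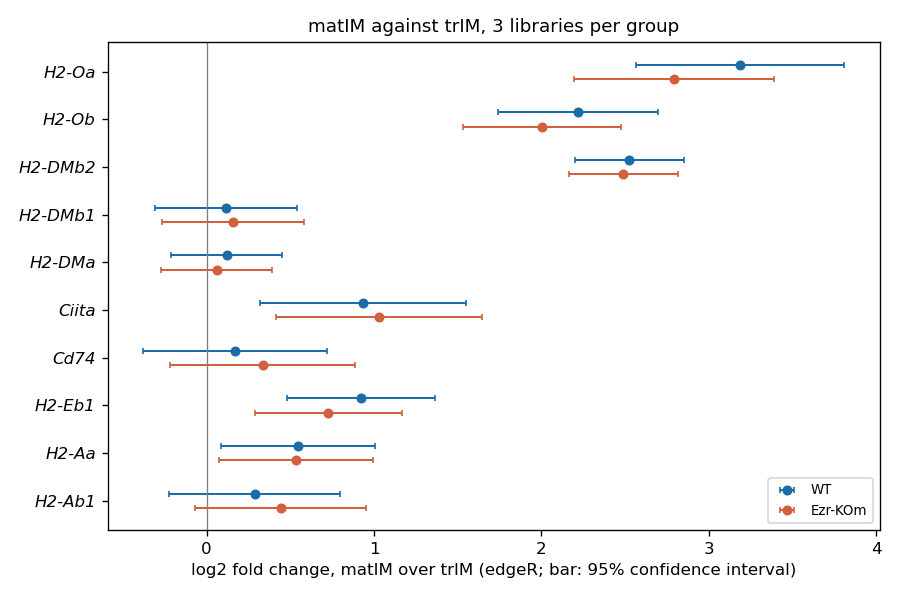
Log2 fold change of matIMs over trIMs with its 95% confidence interval for the 10 genes, WT in blue and Ezr-KOm in orange, 3 libraries per group. H2-Oa, H2-Ob and H2-DMb2 sit between 2.00 and 3.19, and the intervals of H2-DMb1, H2-DMa, Cd74 and H2-Ab1 cross 0.

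Ratios taken within each library, which need no scaling between libraries, describe the make-up of the H2-DM and H2-O dimers. They were chosen after the levels had been seen and carry no test. H2-DMb2 made up 5.64, 4.38 and 4.22% of the H2-DM beta chain counts in the WT moM libraries, 5.57, 4.59 and 5.58% in trIMs and 23.8, 21.6 and 21.8% in matIMs. The Ezr-KOm libraries ranged from 4.25 to 5.59%, from 5.74 to 5.92% and from 22.3 to 25.1% in the same order. The moM and trIM shares overlapped in WT mice and lay close together without overlap in Ezr-KOm mice, and the matIM shares were several times higher in both. Per kilobase of transcript, H2-O stood at 0.404, 0.249 and 0.361 per 100 H2-DM in WT moMs, 0.475, 0.430 and 0.777 in trIMs and 2.48, 2.45 and 2.92 in matIMs. In Ezr-KOm matIMs it stood at 3.00, 3.60 and 4.06, above all 3 WT matIM libraries, while the trIM ranges of the genotypes overlapped. None of the H2-O and H2-DM chains was called between the genotypes in matIMs. The share of ratios without overlap was not counted, so the separation in matIMs carries no weight by itself. In every library the inhibitor's transcripts stayed far below those of H2-DM.

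Per kilobase, H2-Aa stood at 0.390 to 0.457 times H2-Ab1 in WT moMs, 0.326 to 0.473 times in trIMs and 0.445 to 0.488 times in matIMs, and the ranges overlapped. H2-Eb1 amounted to 11.2, 13.6 and 13.3% of the H2-Ab1 level per kilobase in WT moMs, 22.4, 12.4 and 23.2% in trIMs and 29.1, 24.6 and 28.9% in matIMs. The second WT trIM library, at 12.4%, lay within the moM range and apart from the other trIM libraries, of which the 3 Ezr-KOm ones ranged from 22.5 to 23.3%. The Ezr-KOm moM libraries ranged from 11.7 to 12.4% and the matIM libraries from 23.1 to 30.2%, which overlapped with trIMs. Cd74 stood at 4.21 to 5.27 times the H2-Aa level per kilobase in WT moMs, at 2.71 to 4.27 in trIMs and at 2.35 to 2.99 in matIMs, where the trIM range overlapped with both others.

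**Figure D3:**
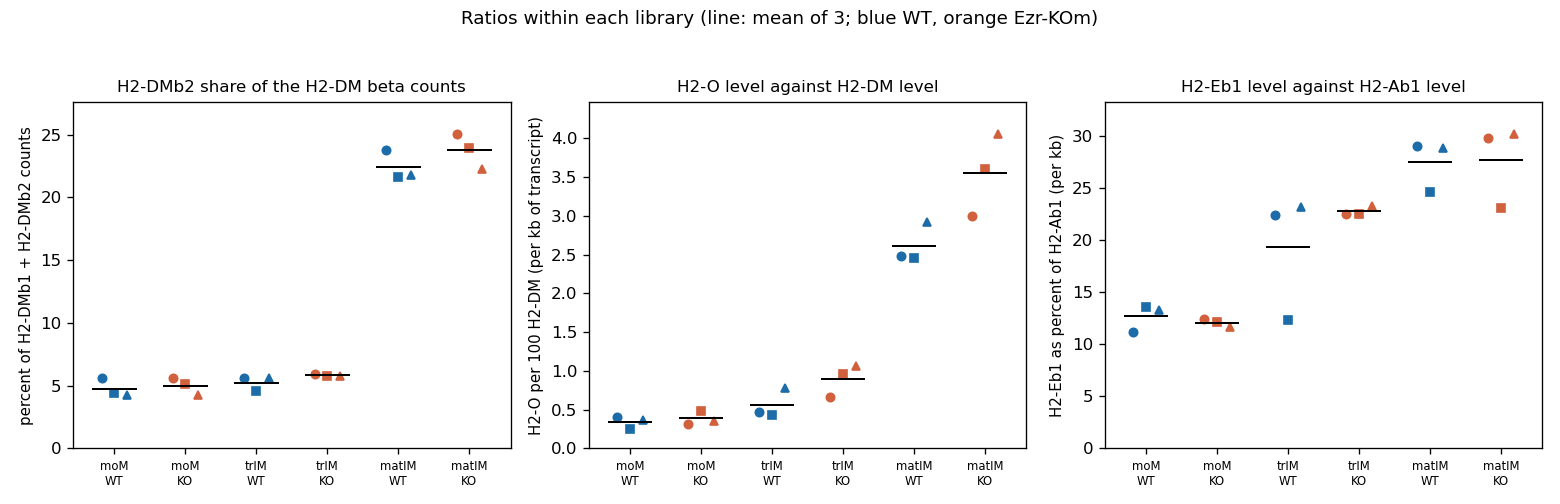
Ratios within each of the 18 libraries by population and genotype: the share of H2-DMb2 in the H2-DM beta chain counts (percent), H2-O per 100 H2-DM and H2-Eb1 as a percent of H2-Ab1 (both per kb of transcript); points are libraries and lines the mean of 3. The H2-DMb2 share lies near 4.75% and 5.25% in WT moMs and trIMs and at 22.4% in WT matIMs.

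Against moMs, which were sorted as MHC-II-, all 7 genes outside the stained antigen were higher in trIMs and in matIMs in both genotypes. The share of all genes called higher was 13% for WT trIMs, 13.4% for WT matIMs, 9.23% for Ezr-KOm trIMs and 12.5% for Ezr-KOm matIMs. The gate on surface MHC-II stands beside all of these values, and its part in them was not tested. Cd74 stood at 2765, 3609 and 3081 CPM in WT moMs, and its log2 fold change was 2.66 (SE 0.28, edgeR adjusted p = 3.60e-06) in trIMs and 2.83 (SE 0.28, adjusted p = 4.86e-07) in matIMs. Nearly the whole difference of Cd74 from moMs was thus present in trIMs. The same held for H2-DMa (0.94 in WT trIMs and 1.06 in WT matIMs on the log2 scale) and H2-DMb1 (1.90 and 2.01). H2-DMb2 (2.05 and 4.57), H2-Ob (2.22 and 4.44), H2-Oa (1.88 and 5.07) and Ciita (1.57 and 2.50) stood further from moMs in matIMs than in trIMs. The WT adjusted p-values were at most 9.38e-04, and the comparisons share the moM libraries.

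For Ezr-KOm mice the same 7 log2 fold changes over moMs ran from 0.901 to 2.93 in trIMs and from 0.962 to 5.72 in matIMs, with H2-DMa the lowest in both. The genes of the stained antigen are given as a description because of the sort. On the log2 scale they differed from WT moMs by 3.05 (H2-Aa), 3.22 (H2-Ab1) and 3.68 (H2-Eb1) in trIMs. In matIMs these genes differed by 3.60, 3.51 and 4.61. Their transcripts were not absent from cells sorted as MHC-II-: WT moMs held 1141, 1548 and 1356 CPM of H2-Ab1 and 414, 647 and 576 CPM of H2-Aa. In sorted bulk samples fewer cells of a type and less RNA per cell cannot be told apart.

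The genotype comparison asks whether loss of ezrin changed class II transcripts within a population. None of the 10 genes passed an adjusted p of 0.05 in moMs, trIMs or matIMs, where 0.171%, 0.164% and 0.152% of all genes did (edgeR). None met the threshold used in the study, an unadjusted p under 0.05 together with a log2 fold change beyond 0.75 in either direction, which 2.51%, 1.83% and 2.4% of all genes met. At an unadjusted p under 0.05 alone, 1 of the 10 was found in trIMs, H2-Oa, and 0 in moMs and matIMs, beside 3.24%, 3.74% and 3.84% of all genes in trIMs, moMs and matIMs. DESeq2 called 0 of the 10 in each population as well. The median log2 fold changes of the 10 were -0.04, -0.01 and -0.05 in moMs, trIMs and matIMs.

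The precision was enough to bound most of these differences. The 95% intervals of H2-Aa ran from -0.44 to 0.48 in moMs, -0.45 to 0.47 in trIMs and -0.46 to 0.45 in matIMs on the log2 scale, around values of 0.02, 0.01 and -0.00507. H2-DMb2 had intervals of -0.44 to 0.20, -0.33 to 0.29 and -0.36 to 0.25. For these genes a change of the size of the study's threshold lies outside the interval in every population. Cd74 was less tightly bounded, with -0.80 to 0.30 in trIMs, where the WT libraries differed most among themselves. Ciita had intervals of -0.42 to 0.82, -0.51 to 0.71 and -0.41 to 0.81, so a rise of that size cannot be told from none in moMs and matIMs.

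H2-Oa had the largest genotype difference of the group, in trIMs. Its trIM libraries held 83, 43 and 89 counts in WT and 84, 346 and 130 in Ezr-KOm mice, or 3.46, 2.73 and 3.49 against 3.49, 6.90 and 5.51 CPM. The lowest Ezr-KOm library and the highest WT library were at the same level to 3 digits. The log2 fold change was 0.72 (95% interval 0.12 to 1.32), with an edgeR adjusted p = 1. It would have met the study's threshold without the first WT trIM library (0.80), the third WT trIM library (0.76) or the first Ezr-KOm trIM library (0.93), and it stood at 0.47 without the second Ezr-KOm trIM library. In moMs the value was -0.33 (-1.14 to 0.47) and in matIMs 0.32 (-0.23 to 0.87). H2-Ob, its partner, had a value of 0.40 (-0.06 to 0.86) in trIMs, 0.08 in moMs and 0.18 in matIMs. Of the 7 mature migratory dendritic cell markers, 3 are given here, chosen after their values had been seen; their part in the H2-Oa difference was not tested. Ccr7 stood at 99.9, 128 and 94.5 CPM in WT trIMs and 136, 181 and 143 in Ezr-KOm trIMs, and Ccl22 at 124, 147 and 132 against 154, 232 and 205, with no overlap in either. The share of all genes without overlap was not counted, so this carries no weight by itself. Fscn1 overlapped, at 33.0, 40.2 and 47.5 against 32.2, 87.0 and 47.6, and the second Ezr-KOm library was the highest for H2-Oa and for all 3 of these markers. None of the 3 passed the test between the genotypes, and the sum of the 7 markers was 454 to 729 CPM in WT and 589 to 794 in Ezr-KOm trIMs.

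H2-DMa had a value below 0 in each population, -0.23 in moMs, -0.27 in trIMs and -0.33 in matIMs (SE 0.16, 0.16 and 0.16), and so had H2-DMb1 (-0.19, -0.21 and -0.16) and H2-DMb2. In matIMs the H2-DMa libraries of the genotypes did not overlap, at 1099, 947 and 873 CPM in WT and 791, 699 and 833 in Ezr-KOm mice. The edgeR adjusted p of H2-DMa rounded to 1.00 in each population, so these values were not separated from the spread between libraries.

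**Figure D4:**
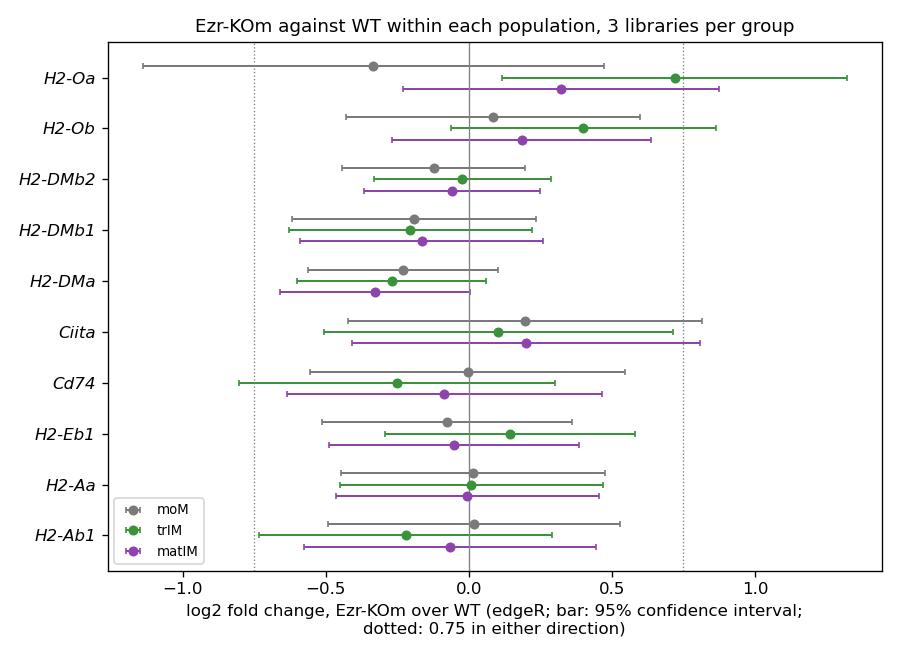
Log2 fold change of Ezr-KOm over WT with its 95% confidence interval for the 10 genes in moMs, trIMs and matIMs, 3 libraries per group; dotted lines mark 0.75 in either direction. The interval of H2-Oa in trIMs, 0.12 to 1.32, is the one that leaves out 0, at an adjusted p of 1.

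Whether the genotype difference itself differed between populations was tested as an interaction. None of the 10 genes passed in the comparison of trIMs with moMs, of matIMs with moMs or of matIMs with trIMs, and neither did any other gene (0% of the genes tested in each, edgeR). At an unadjusted p under 0.05 there were 1, 0 and 0 of the 10, beside 1.47%, 1.7% and 1.16% of all genes, and the same 1, 0 and 0 met the study's threshold, beside 1.37%, 1.52% and 1.03%. The 1 was H2-Oa in trIMs against moMs, with a difference of 1.05 on the log2 scale (95% interval 0.05 to 2.06, adjusted p = 1.00). Without single libraries this difference ran from 0.61 to 1.44. DESeq2 called 0 of the 10 in each of the 3. The steps from trIM to matIM in WT and Ezr-KOm mice, given side by side above, were therefore not shown to differ for any of the 10.

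The factors that act on class II promoters beside CIITA, and the pathway that induces them, were compared between WT trIMs and matIMs. Of 21 transactivators and genes of the inducing pathway, 2 were higher in matIMs and 0 lower, with 8.32% of all genes higher and 10.2% lower. They were Jak2, a kinase of the interferon-gamma receptor (log2 fold change 1.16, adjusted p = 6.71e-04), and Nfya, a subunit of the Y box factor NF-Y (0.77, 0.0125). The subunits of the X box factor RFX did not pass, with values of 0.43 for Rfx5, -0.12 for Rfxap and -0.09 for Rfxank (adjusted p = 0.249, 0.670 and 0.840). Nor did Irf1 (0.16) or Ifngr1 (-0.03), which carry the interferon-gamma signal to Ciita (adjusted p = 0.805 and 0.956). Blocking on the replicate number added no gene of this list in WT mice (Rfx5 adjusted p = 0.116). The median of the list was -0.03, beside 0.0367 over all genes.

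The endosomal enzymes that cut antigen and the invariant chain moved in both directions. Of 14, 3 were higher in WT matIMs and 4 lower, with a list median of -0.19. Cst3, the cathepsin inhibitor cystatin C (1.37, adjusted p = 9.45e-06), Ifi30, the thiol reductase GILT (0.89, 0.00425), and Ctsk, cathepsin K (1.49, 0.0199), were higher. Ctsc (-1.21, adjusted p = 1.07e-05), Ctsb (-0.76, 0.00235), Ctsl (-0.86, 0.00901) and Lgmn, the asparagine endopeptidase (-0.67, 0.00204), were lower. Ctsk and Ctsl were named after their values had been seen, to complete these counts. Ctss, cathepsin S, which makes the final cuts in the invariant chain, did not pass (-0.22, adjusted p = 0.270). In Ezr-KOm mice Lgmn was lower as well (-0.49, adjusted p = 0.0194), and Ifi30 had a value of 0.57 (adjusted p = 0.0645, or 0.00914 with the replicate block). The block added Ctsd (-0.72, blocked adjusted p = 0.00552) and Tpp1 (-0.34, 0.0256) to the lower ones in WT mice.

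Among 13 genes of class II turnover, class II ligands and CD74 partners, 4 were higher in WT matIMs and 1 lower, with a list median of 0.26. The higher ones were Lag3 (3.12, adjusted p = 5.26e-04) and Cd4 (1.84, 0.0159), which encode receptors for class II, Cd83 (0.73, 0.0164), which protects surface class II from ubiquitination, and Tmem176a (0.76, 0.0189). Marchf8, a ubiquitin ligase, was lower (-0.78, adjusted p = 0.0125), while Marchf1, the ligase that turns over surface class II, stood at 0.02 (adjusted p = 0.952). The replicate block added Cd72 and Tmem176b to the higher ones (blocked adjusted p = 0.0173 and 0.0124) and Il10 and Il10rb to the lower ones (0.00228 and 0.0236). In Ezr-KOm mice Cd83 was higher by 0.94 (adjusted p = 0.00279). Between the genotypes 0 of the 21, 0 of the 14 and 0 of the 13 genes passed an adjusted p of 0.05 in any population, and none met the study's threshold.

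Markers of other cell types moved with the same populations, and their part in the class II values was not tested. The summed level of 7 mature migratory dendritic cell markers was 49.7 to 72.2 CPM in WT moMs, 454 to 729 in trIMs and 5837 to 8586 in matIMs. All 7 were higher in WT matIMs than in trIMs, among them Ccl22 (4.29 on the log2 scale), Ccr7 (4.08), Fscn1 (4.36), Cacnb3 (4.32) and Socs2 (1.30). The 9 conventional dendritic cell markers summed to 369.7 to 465, 689.7 to 769 and 1555 to 2319 CPM, with 6 of them higher in matIMs, such as Zbtb46 (2.75), Flt3 (3.48), Dpp4 (2.43), Itgae (3.45) and Cd209a (3.09), and 0 lower. The 7 B cell markers summed to 9.45 to 14.3, 58.9 to 88.7 and 162 to 240.1 CPM, with 6 higher and 1 lower in matIMs, the higher ones including Cd79a (2.04), Cd79b (1.42), Ms4a1 (2.37) and Blk (1.63). Dendritic cells and B cells are professional class II presenters, and B cells are the classical H2-O cells. The cells were sorted on CD45 and CD11b, and the study's gating took moMs, trIMs and matIMs from the CD11c- fraction. Itgax, the gene of CD11c, was nevertheless read at 256, 291 and 259.7 CPM in WT moMs, 671, 457 and 537 in trIMs and 714, 613 and 644 in matIMs; it was named after its values had been seen.

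The labelled cell type was read against 11 monocyte and macrophage markers, which were present in every group. They summed to 14534 to 16592 CPM in WT moMs, 11054 to 16199 in trIMs and 6852 to 7785 in matIMs. In WT matIMs the 7 mature migratory dendritic cell markers summed to 5837 to 8586 CPM, a range that holds the macrophage sums. These sums do not single out macrophages in matIMs, and the names of the populations follow the labels. Cd14 (-1.18 in matIMs over trIMs), Csf1r (-0.68), Fcgr1 (-0.92), Mertk (-0.68) and Ly6c2 (-2.10), a gene of the Ly6C antigen in the gate, were the 5 that were lower in WT matIMs, and 1 of the 11 was higher. The 6 alveolar type 2 cell markers, from an epithelium that also carries class II, summed to 2673 to 4288 CPM in WT trIMs against 474 to 493 in moMs and 719 to 814 in matIMs, with Lamp3 (-3.23), Sftpc (-3.52), Sftpa1 (-3.32) and Sftpb (-3.36) lower in matIMs and Napsa (0.68) higher. Of the 6, Epcam did not pass the test. Alveolar macrophage markers summed to at most 302 CPM and plasmacytoid dendritic cell markers to at most 8.34 CPM in any library, with 1 of 7 higher and 0 lower in WT matIMs in the first list and 1 higher and 1 lower of 4 tested in the second. Pax5 was at 0 throughout Ezr-KOm moMs, and no other marker of these lists was at 0 throughout a group. Between the genotypes 0 markers passed an adjusted p of 0.05 in any population (edgeR), and the matIM sums of the mature migratory dendritic cell list overlapped between WT and Ezr-KOm mice (7623 to 8464 CPM).

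**Figure D5:**
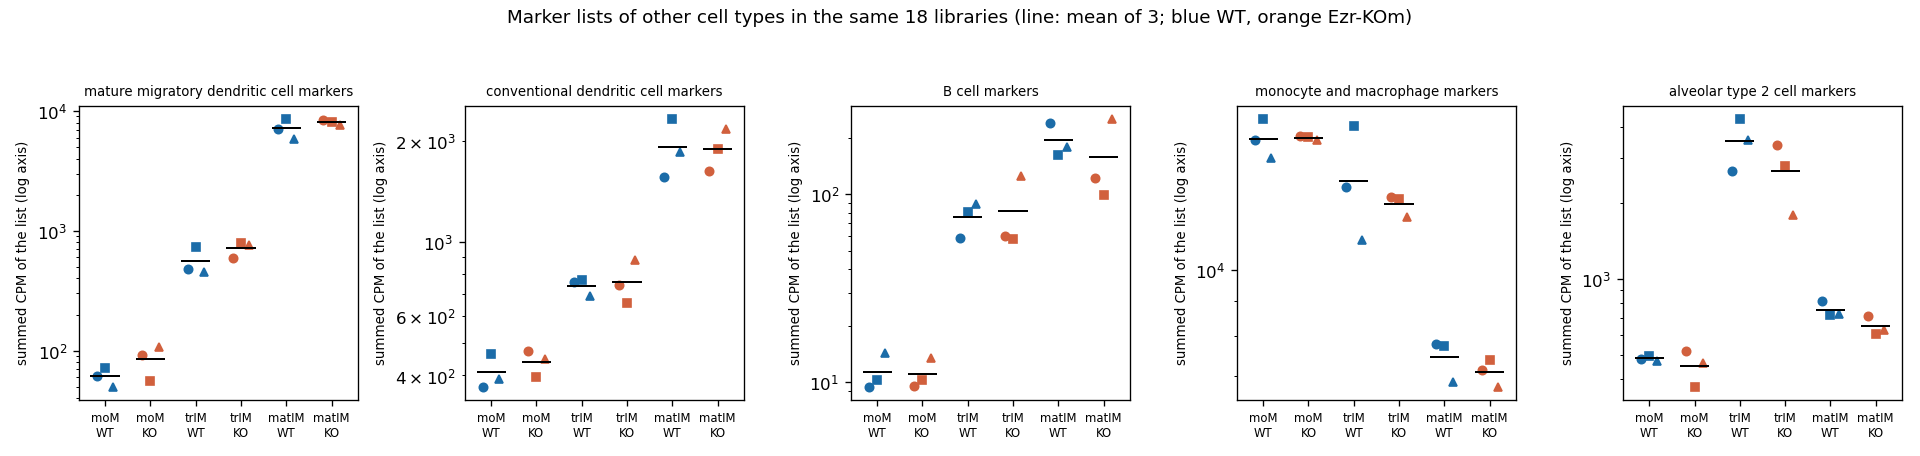
Summed CPM (log axis) of 5 marker lists in the 18 libraries by population and genotype; points are libraries, shapes give the replicate number and lines the mean of 3. The mature migratory dendritic cell list rises from 454 to 729 in WT trIMs to 5837 to 8586 in WT matIMs, while the monocyte and macrophage list stands lower in matIMs than in trIMs.

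The genes whose levels ran most like those of the group over the 18 libraries, which share mice, populations and depth, were looked up by Pearson correlation of log2 CPM. Nearest to H2-Aa among genes outside the group were Epcam (0.97), Cd79a (0.97), Igkv1-110 (0.97), Pou2af1 (0.97) and Stap2 (0.97). Among the nearest to Ciita were Cx3cl1 (0.97), Fcmr (0.96), Cd22 (0.96) and Cacnb3 (0.96). H2-Aa itself ran with H2-Eb1 at 1.00 and with H2-Oa at 0.86, the lowest value within the group for H2-Aa. By Spearman's rank correlation none of the 5 genes nearest to H2-Aa remained among its nearest 5 (they ranked 44 to 352), against 2 of the 5 nearest to Ciita. Of deviations from the group means the correlation with H2-Aa was -0.13 for Epcam, -0.15 for Stap2, 0.11 for Igkv1-110, 0.19 for Cd79a and 0.38 for Pou2af1, so the values above rest on differences between the groups.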

How the data were processed

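Lung moMs, trIMs and matIMs of WT and Ezr-KOm mice were profiled in 18 libraries. The authors made the deposited counts per gene from SMART-Seq v4 and Nextera XT libraries (150 bp paired-end reads) with STAR 2.7.9a GeneCounts on GRCm39 and Gencode M29; the strand column used is not given in the sources used here. Counts were tested as deposited with edgeR 4.0.16 (R 4.3.3): TMM, filterByExpr with min.count 10, 1 quasi-likelihood model of 6 groups, Benjamini-Hochberg over 15811 genes, called at an adjusted p under 0.05. The threshold of the study (unadjusted p under 0.05 and log2 fold change beyond 0.75) was applied beside it. Intervals are 95% intervals of the model. DESeq2 1.42, other scalings, filters and designs, and single left-out libraries were alternatives. The model was tested on simulated data for Ezr-KOm against WT trIMs, with changes put into well-counted genes. Of 100 changes of each size, the model called 67% of the 2-fold and 96% of the 4-fold ones in the right direction. It also called 4 unchanged genes. The real comparison called 26 genes, and the adjusted p depends on how many genes change. These shares may therefore be too high for the real data. The 95% intervals held 92% and 97% of the true values.

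Levels are TMM-scaled CPM, and levels per kb use the canonical transcript of GENCODE vM39. Replicate pairs differed by 19.6 to 86.4 times the sampling noise (chi-square per degree of freedom). Libraries with the same number in the labels deviated together from their group means: r was 0.102 to 0.316 between genotypes of a population (9 pairs) and 0.0905 to 0.397 between populations of a genotype (18 pairs), and the labels name no shared batch. The number served as a replicate block, and genotype with number as a mouse block.

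The 10 genes, the lists and the ratios were chosen with earlier results of these data known. Named from each list were the 5 genes of smallest p between WT matIMs and trIMs, any called between genotypes, and a few regulators; some of these genes are not reported here. Motifs were searched in GRCm39 windows because the RefSeq promoter table in hand is of another build.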

Additional observations from a re-analysis of the deposited data

How the results depend on the processing

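Of the counts of called genes, those against moMs stayed at 7 of 7, and those between genotypes and for the interactions at 0 of 10, under DESeq2, upper-quartile and library-total scaling, no filter, robust dispersion, the replicate block, only the contrast's groups in the fit and every left-out library. The exception was a filter of at least 10 counts in every library, which removed H2-Oa and gave 6 against moMs. The 5 genes higher in matIMs than trIMs became 4 under that filter and 6 with the mouse block, which added H2-Aa in both genotypes; the replicate block changed no call of the 10 genes but raised the calls in the pathway lists (WT matIM against trIM) from 14 to 20, with the added genes named above after their values had been seen. In Ezr-KOm mice the replicate block added 7 genes of these lists and the mouse block 8, Rfx5 among the latter (adjusted p = 0.0447). Without 1 library the count was 4 to 5 in WT mice and 3 to 5 in Ezr-KOm mice, with 3 without the first trIM or the third matIM library; the genes lost are named above.

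Genotype differences near 0 changed sign under some settings, all without a call: -0.00701 (H2-Aa, trIMs) and 7.14e-04 (H2-Aa, matIMs) under DESeq2, 0.00280 (Cd74, moMs) and 0.0102 (H2-Aa, matIMs) under upper-quartile scaling, 0.0182 (H2-Aa, matIMs) under library totals, -0.00341 (H2-Aa, trIMs) and 0.00264 (H2-Aa, matIMs) under at least 10 counts in every library, 0.0310 (Cd74, moMs) under the replicate block, 0.00134 (Cd74, moMs) and 0.00614 (H2-Aa, matIMs) under only the contrast's groups. The cause was not tested.

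Leaving out each library in turn changed the sign of uncalled log2 fold changes. Between genotypes in moMs the values ran from -0.26 to 0.22 for H2-Aa, -0.22 to 0.21 for H2-Ab1, -0.28 to 0.11 for H2-Eb1, -0.18 to 0.21 for Cd74, -0.71 to 0.12 for H2-Oa, -0.24 to 0.0290 for H2-DMb2, -0.11 to 0.40 for Ciita, -0.0305 to 0.14 for H2-Ob. For WT matIMs against trIMs the values ran from -0.0255 to 0.30 for H2-DMb1, -0.00473 to 0.63 for H2-Ab1, -0.14 to 0.57 for Cd74, -0.0687 to 0.20 for H2-DMa. Between genotypes in trIMs the values ran from -0.47 to 0.15 for H2-Ab1, -0.52 to 0.18 for Cd74, -0.30 to 0.00986 for H2-DMb1, -0.0958 to 0.10 for H2-DMb2, -0.15 to 0.19 for H2-Aa, -0.11 to 0.28 for Ciita. For Ezr-KOm matIMs against trIMs the values ran from -0.0267 to 0.13 for H2-DMa. Between genotypes in matIMs the values ran from -0.11 to 0.0905 for H2-Aa, -0.20 to 0.0331 for H2-Ab1, -0.15 to 0.10 for H2-Eb1, -0.11 to 0.00756 for H2-DMb2, -0.25 to 0.0394 for Cd74, -0.13 to 0.41 for Ciita, -0.0163 to 0.29 for H2-Ob.

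The median level of the 10 genes over the 18 libraries, 879.6 CPM, was 888 and 889 under the other scalings. The test, the filter and the design do not enter the levels and gave no value for them. Of the 5 genes nearest to H2-Aa and the 5 nearest to Ciita, 0 and 2 remained among the nearest 5 by Spearman's rank correlation, and 3 and 4 with a prior count of 0.5. With 3 libraries per group, the median standard error of a genotype difference was 0.231, 0.220 and 0.217 on the log2 scale in moMs, trIMs and matIMs, so differences of that size were not detectable, and H2-Oa in moMs rests on 9 to 33 counts. Larger differences could be missed as well. Ezr itself, at -1.20 in moMs, did not pass (edgeR adjusted p = 0.0549), so an absent call does not show an absent difference.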

Other observations

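Within groups, the libraries of H2-Ab1 and Cd74 deviated together from their group means (Pearson r = 0.97 over the 18 libraries, which share mice), as did those of H2-Aa with H2-DMb1 (0.90), H2-DMa (0.88) and H2-Eb1 (0.87). Ciita, whose product acts on class II promoters, stood at 0.02 with Cd74, 0.62 with H2-DMb1 and 0.71 with H2-Ob. H2-Oa stood at -0.37 with H2-Aa, -0.44 with H2-DMb2 and 0.11 with its partner H2-Ob. The 2 chains of H2-O thus rose together across populations, while their deviations within groups had a low correlation. H2-Oa was near the floor in moMs (0.373 to 1.30 CPM in WT), where sampling noise enters its deviations. The low value therefore does not show that the chains vary apart. These are descriptions of 18 points in 6 groups, with no test.

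The second WT trIM library held the highest Cd74 (30295 CPM) and H2-Ab1 (18399.8 CPM) of all 18 libraries, while its H2-Eb1 (3186 CPM) and Ciita (95.9 CPM) lay between those of the other WT trIM libraries. It was also the shallowest library, at 16512783 counts.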
